A study of Homo sapiens with 6 samples.

Results

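EGR1, EGR2, EGR3, KLF2, KLF4, KLF6 and KLF10 are zinc finger transcription factors of the early growth response (EGR) and Krüppel-like factor (KLF) families. Their values were followed through 72 h of all-trans retinoic acid (ATRA) in NB4 cells, a human acute promyelocytic leukaemia line whose PML-RARA fusion makes it respond to ATRA by maturing toward neutrophils. All probe sets annotated to a single member gene were taken, which gave 14 of 41091 probe sets compared and 6 of 19775 genes. EGR1 had 3 probe sets, KLF2 and KLF4 had 2 each, KLF6 had 5, and EGR3 and KLF10 had 1 each. No probe set was annotated to EGR2 alone, so EGR2 is not analysed here. The arrays held untreated cells (0 h) and cells kept for 4, 12, 24, 48 and 72 h in ATRA at 1e-06 M, a single array for each of the 6 groups. All groups were the same cell line, and the untreated array is of 0 h alone, so time in ATRA and time in culture cannot be told apart.

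EGR proteins are textbook immediate-early factors. A growth factor or cytokine signal that runs through the ERK kinases acts on the EGR1 promoter through serum response factor and its ELK partners. The EGR proteins bind GC-rich sites and are restrained by the corepressors NAB1 and NAB2. In myeloid cells EGR1 is known for favouring the monocyte and macrophage path, and mouse work places the EGR factors opposite GFI1, a factor of granulocyte development. KLF proteins bind GC boxes and CACCC motifs. KLF4 drives monocyte differentiation, KLF2 holds lymphocytes, monocytes and endothelium in a quiet state, KLF6 promotes inflammatory gene expression in mouse macrophages, and KLF10 is an early transcript of TGF-beta signalling.

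Promoter windows of 4 members were found in the RefSeq table (build GRCh38.p14), reaching from 250 bases before the annotated start to 50 bases into the gene. Those of the 3 among them whose signal moved by 2-fold or more are shown. Motifs that EGR control is known for are marked, though not every window holds each of them. Capitals mark matches on either strand to the CArG box (the site of serum response factor), the cAMP response element half-site TGACG, and the EGR site GCGNGGGCG. The EGR1 window lies at chr5:138465229-138465528 on the plus strand, the KLF4 window at chr9:107489720-107490019 on the minus strand, and the KLF6 window at chr10:3785160-3785459 on the minus strand.
EGR1: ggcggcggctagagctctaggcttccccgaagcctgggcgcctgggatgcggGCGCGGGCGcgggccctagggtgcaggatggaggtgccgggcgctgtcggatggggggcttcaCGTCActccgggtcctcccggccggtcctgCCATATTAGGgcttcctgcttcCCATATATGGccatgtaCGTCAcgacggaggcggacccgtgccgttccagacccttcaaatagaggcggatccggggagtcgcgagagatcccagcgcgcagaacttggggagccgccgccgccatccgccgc
KLF4: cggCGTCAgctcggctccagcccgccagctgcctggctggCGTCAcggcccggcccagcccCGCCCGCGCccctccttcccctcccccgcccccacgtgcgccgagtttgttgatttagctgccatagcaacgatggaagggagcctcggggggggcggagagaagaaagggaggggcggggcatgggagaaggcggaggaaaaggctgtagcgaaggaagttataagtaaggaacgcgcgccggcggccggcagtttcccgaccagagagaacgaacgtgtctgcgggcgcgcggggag
KLF6: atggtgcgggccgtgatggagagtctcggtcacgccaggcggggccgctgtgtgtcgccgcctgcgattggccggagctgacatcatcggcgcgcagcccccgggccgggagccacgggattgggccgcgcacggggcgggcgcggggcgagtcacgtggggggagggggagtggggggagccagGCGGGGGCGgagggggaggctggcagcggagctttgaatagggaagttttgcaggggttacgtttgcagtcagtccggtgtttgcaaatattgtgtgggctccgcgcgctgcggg

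The EGR1 window held 2 CArG boxes, the first running from 105 to 96 bases and the second from 83 to 74 bases before the start. A CArG box was present in 1.29% of 35116 promoter windows of the same length, and 2 or more in 11 of them. The KLF2, KLF4 and KLF6 windows held none. The half-site TGACG had 2 matches in the EGR1 window and 2 in the KLF4 window, against 24.6% of all windows with at least 1. An EGR site was present in the EGR1, KLF2, KLF4 and KLF6 windows, against 9.43% of all windows, but these windows were 69.3%, 80.7%, 69.0% and 70.7% G and C, where the median window had 58.7%. A GC box, GGGCGGG, which can overlap an EGR site, had 5 matches in the KLF2 window, 3 in the KLF4 window and 1 in the KLF6 window, and was found in 33.1% of all windows. The KLF2 window also held a MEF2 box, present in 0.572% of windows, and the retinoic acid receptor half-site AGGTCA, present in 13.8% of windows, had no match in any of the 4. These are letter matches, and binding was not measured.

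**Figure D1:**
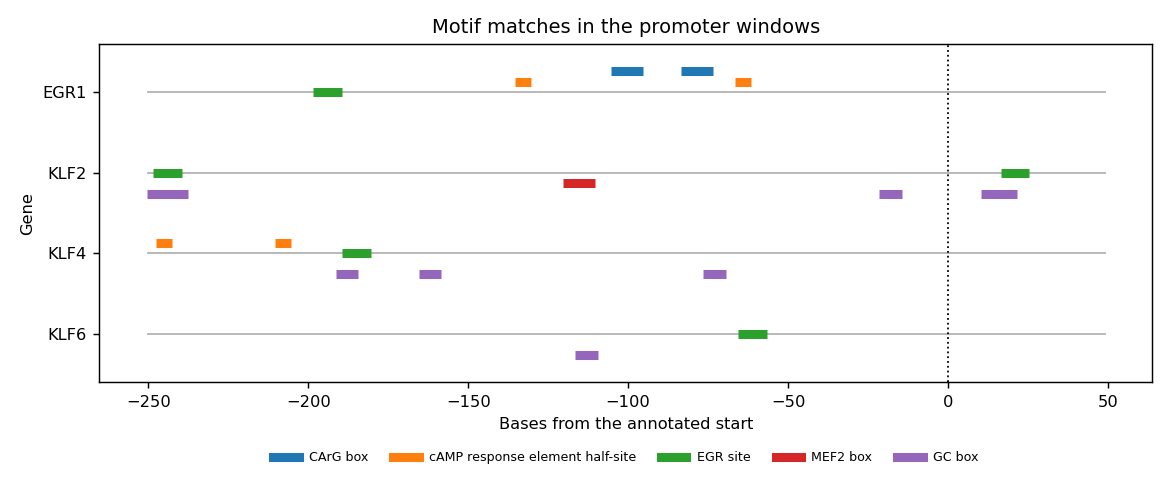
Motif matches (coloured blocks, either strand) in the promoter windows of EGR1, KLF2, KLF4 and KLF6, by distance in bases from the annotated start (dotted line). The EGR1 window is the one with 2 CArG boxes, and an EGR site is present in all 4 windows.

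The deposited values are log2 signals, normalised by the authors so that the arrays have like distributions, with array medians of 3.64 to 3.69. Among the probe sets of a gene, the one with the highest mean over the arrays stood for it, and the gene was tested when its highest signal reached 3.66, the median of all values, which left 13594 genes. All 6 measured members passed, EGR3 through its 24, 48 and 72 h arrays alone. Of 6 measured promyelocyte markers, MPO, PRTN3, AZU1, CTSG and ANPEP were above 3.66 in untreated cells and ELANE was below it on every array. That level does not by itself separate cell types, since 5 of 6 mature neutrophil markers and 3 of 3 T cell markers were above it in untreated cells too. The spiked bioC control averaged 8.01 and 8.11 on the 0 and 12 h arrays and 6.88 to 7.17 on the others, so values are also given within these sets of arrays. Scaling the arrays to equal spiked controls adds -0.15 to 1.0 (log2) to every gene's difference from untreated when all controls are used, and -0.56 to -0.08 when bioC is left out.

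The members did not share a single course. EGR1 was lower at 4 h and higher from 12 h on, EGR3 climbed from 24 h to its highest signal at 72 h, KLF4 and KLF6 were low from 4 to 48 h and high at 72 h, KLF10 dipped at 4 h, and KLF2 stayed within 0.37 log2 units on all 6 arrays. At 4 h no member was 2-fold or more higher than untreated and 2 of 6, EGR1 and KLF4, were 2-fold or more lower, where 1.74% of all genes tested were higher and 1.81% lower. At 12 h EGR1 was 2-fold or more higher (2.30% of all genes) and KLF4 and KLF6 lower (1.93%). EGR1 and EGR3 were higher and KLF4 lower at both 24 h (3.35% of genes higher, 1.99% lower) and 48 h (5.83% higher, 4.49% lower). By 72 h, 3 of 6 members, EGR1, EGR3 and KLF6, were higher by 2-fold or more and none was lower, where 10.9% of genes were higher and 12.2% lower. Against the 4 h array, a comparison chosen after the values were seen, 5 of 6 were higher at 72 h and none lower, where 10.1% of genes were higher and 10.4% lower. The median difference of the 6 members from untreated over the 5 ATRA times, in order, was -0.87, -0.16, 0.05, 0.04 and 1.33, beside 0.03, -0.06, -0.01, -0.02 and -0.06 over all genes tested. Each such difference compares 2 single arrays and has no replicate check.

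**Figure D2:**
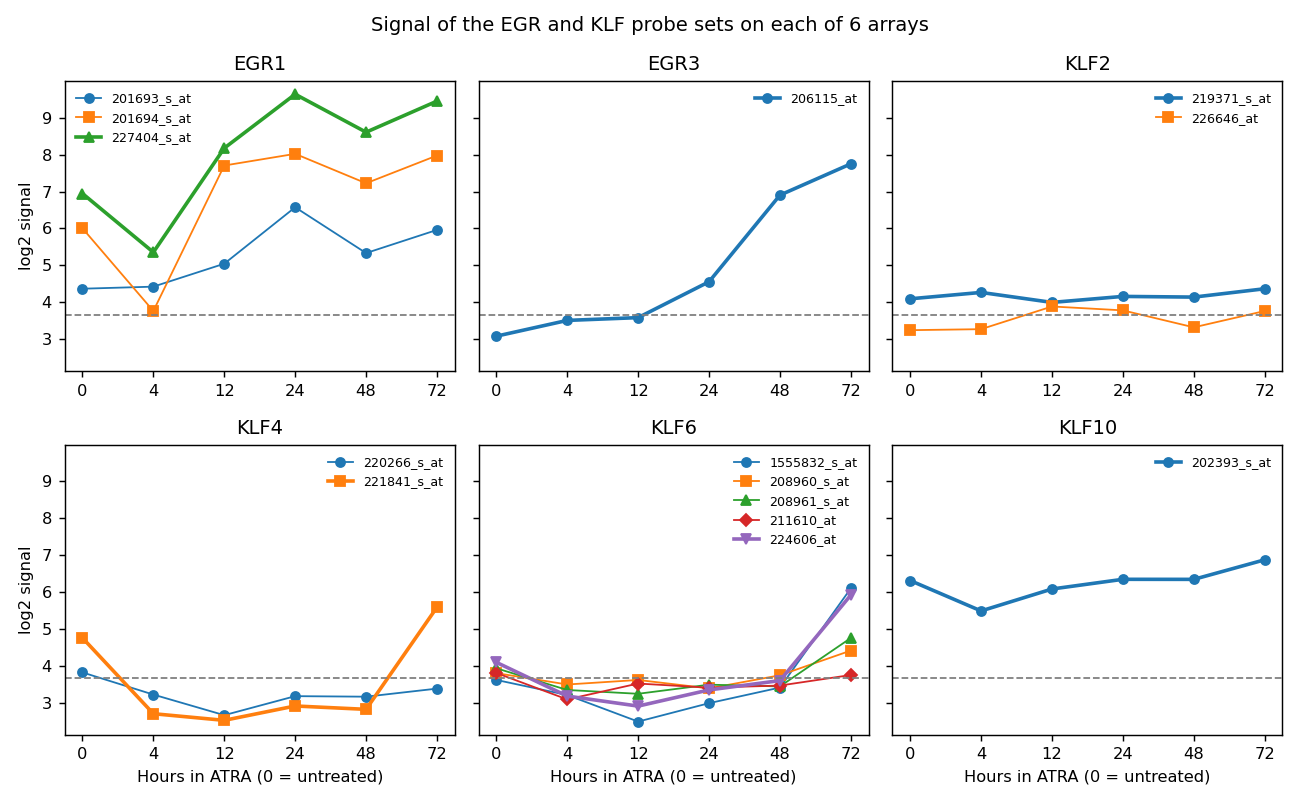
The log2 signal (y axis) of each of the 14 probe sets on the arrays at 0, 4, 12, 24, 48 and 72 h (x axis, evenly spaced), with the probe set that stands for the gene as a thick line and the 3.66 level dashed. EGR1 is lowest at 4 h in 2 of its 3 probe sets, and 4 of the 5 KLF6 probe sets are highest at 72 h.

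EGR1, the founding member of the EGR family, had log2 signals of 6.95, 5.36, 8.18, 9.64, 8.61 and 9.45 at 0, 4, 12, 24, 48 and 72 h (probe set 227404_s_at). The 4 h array was the only ATRA array below the untreated one. EGR1 was 3.01-fold lower at 4 h than untreated, and at the 4 later times it was 2.34-, 6.45-, 3.16- and 5.66-fold higher. A second probe set (201694_s_at) ran in parallel, with signals of 6.01, 3.76, 7.70, 8.02, 7.22 and 7.98 in the same order, and was 4.73-fold lower at 4 h. The third (201693_s_at) had 4.37, 4.42, 5.05, 6.57, 5.33 and 5.96 and showed no dip, its 4 h array differing from untreated by 0.06. All 3 had their highest signal at 24 h. Within the arrays of low bioC level, EGR1 was 19.4-fold higher at 24 h than at 4 h and 17.1-fold higher at 72 h than at 4 h. Within the other set it was higher by 1.23 (log2) at 12 h than in untreated cells.

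Whether a gene had a slope over the 6 arrays in time order was tested with limma across all 13594 genes, of which 8.33% were called rising and 9.86% falling at an adjusted p under 0.05. Among all genes 1132 rose and 1341 fell, against 1039 and 48 with the scaling to all spiked controls and 735 and 3268 with bioC left out. Among the 6 members 2 rose and none fell. EGR1 rose, with a slope of 0.68 ± 0.20 log2 units per step (SE) and a limma adjusted p = 0.0496, just past the threshold. With every probe set of 1 gene tested on its own, where 7.47% rose and 9.68% fell, none of the 3 EGR1 probe sets was called (limma adjusted p = 0.0515, 0.0723 and 0.13). The call was also lost when the 0, 4, 12, 48 or 72 h array was left out (limma adjusted p from 0.0544 to 0.138) and when hours replaced time order (limma adjusted p = 0.0771), with the mean of its probe sets (0.0675) and with no filter (0.0548).

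EGR3, an EGR factor best known from lymphocyte activation, had log2 signals of 3.08, 3.51, 3.59, 4.56, 6.90 and 7.75 at 0, 4, 12, 24, 48 and 72 h. The first 3 arrays were below the 3.66 level and the last 3 rose above it in steps. With the untreated signal set to 3.66, EGR3 was at least 1.86-, 9.46- and 17.02-fold higher on these 3 arrays. EGR3 rose, with a slope of 0.99 ± 0.13 log2 units per step (SE) and a limma adjusted p = 0.00374. This call held with each array left out in turn, with slopes of 0.87 to 1.18 per step and limma adjusted p from 0.00271 to 0.0205. The 28S ribosomal RNA 5' control was high on the 48 and 72 h arrays (9.51 and 9.63) and highest at 12 h (10.3). Its part in the EGR3 values was not tested.

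**Figure D3:**
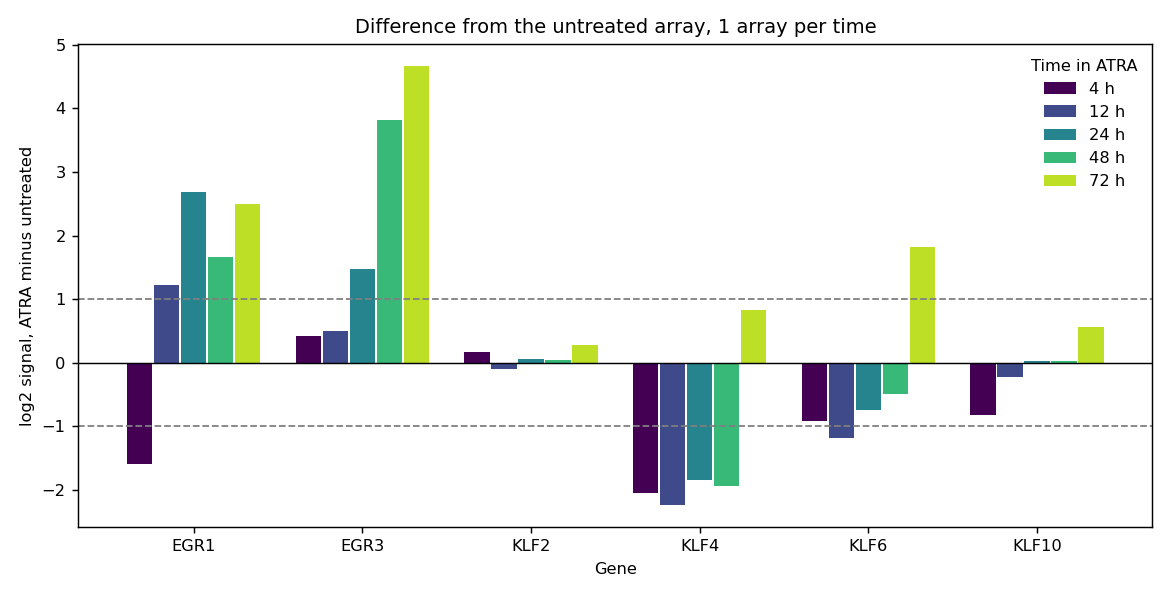
Difference in log2 signal from the untreated array (bars) for each measured gene at 4, 12, 24, 48 and 72 h, with dashed lines at 2-fold. The EGR1 bars are below 0 at 4 h alone, and bars of EGR3, KLF4 and KLF6 that have an end under 3.66 are differences as deposited, of which only the bounds in the text can be read.

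KLF4, a monocyte differentiation factor that is also used in cell reprogramming, had log2 signals of 4.76, 2.71, 2.53, 2.92, 2.82 and 5.59 at 0, 4, 12, 24, 48 and 72 h (probe set 221841_s_at). Only the first and the last array were above 3.66. KLF4 was at least 2.14-fold lower at 4, 12, 24 and 48 h than untreated, with the low end set to 3.66, and 1.78-fold higher at 72 h. Between 48 h and 72 h it was at least 3.81-fold higher at 72 h. The bound of 2.14-fold lower includes 12 h, the array that shares the untreated array's bioC level. The 72 h difference from untreated of 0.83 (log2) becomes 1.49 with the scaling to all spiked controls and 0.27 with bioC left out. The second probe set (220266_s_at) had 3.82, 3.22, 2.67, 3.18, 3.17 and 3.39 and was highest in untreated cells, staying under 3.66 at every ATRA time, so the 72 h recovery rests on 1 of 2 probe sets. The limma slope was 0.14 ± 0.24 per step and was not called (limma adjusted p = 0.758), and it turned to -0.37 without the 72 h array.

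KLF6, a broadly expressed factor that is also a tumour suppressor, had log2 signals of 4.10, 3.18, 2.91, 3.35, 3.60 and 5.92 at 0, 4, 12, 24, 48 and 72 h (probe set 224606_at). The 4 arrays from 4 to 48 h lay below 3.66 and below the untreated array, and the 72 h array stood above all others. With values below 3.66 set to it, KLF6 was at least 1.35-fold lower at these 4 times than untreated, so its 2-fold difference at 12 h rests on a signal below that level. It was 3.54-fold higher at 72 h than untreated and at least 4.79-fold higher at 72 h than at 48 h. Its deposited differences at 24 and 48 h, -0.75 and -0.49, rest on such signals. They become 0.08 and 0.50 when the arrays are scaled to all spiked controls, and -1.23 and -0.85 with bioC left out. Probe set 1555832_s_at had 3.62, 3.21, 2.49, 2.99, 3.42 and 6.10, and 208961_s_at had 3.94, 3.35, 3.25, 3.49, 3.45 and 4.76. These 3 probe sets were all lowest at 12 h and highest at 72 h. Probe set 208960_s_at was highest at 72 h too (4.42, against 3.81 in untreated cells), while 211610_at lay between 3.09 and 3.81 and was highest in untreated cells. No KLF6 probe set had a called slope, and for the gene it was 0.31 ± 0.18 per step (limma adjusted p = 0.279).

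KLF4 and KLF6 thus shared a late step that the straight line does not describe. Between 48 and 72 h, a comparison chosen after the values were seen, KLF4 and KLF6 gained 2-fold or more and no member was lower, where 4.74% of all genes tested were higher and 2.14% lower. Both were below 3.66 at 48 h, so these are the bounds of at least 3.81- and 4.79-fold given above. EGR1 (0.84), EGR3 (0.85), KLF10 (0.53) and KLF2 (0.23) were higher by less than 2-fold. As a description over the 6 arrays, which share each array's scaling, Pearson's r was 0.93 between KLF4 and KLF6, 0.64 between EGR1 and EGR3, and 0.21 between EGR1 and KLF4.

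KLF10, known as TGF-beta-inducible early gene 1, had log2 signals of 6.31, 5.49, 6.08, 6.35, 6.35 and 6.88 at 0, 4, 12, 24, 48 and 72 h. The 4 h array was the lowest and the 72 h array the highest. KLF10 was 1.77-fold lower at 4 h and 1.48-fold higher at 72 h than untreated. The 4 h difference of -0.82 (log2) becomes -0.11 with the scaling to all spiked controls and -1.23 with bioC left out. The 72 h difference of 0.56 becomes 1.23 and -0.0024 in the same order. Its slope of 0.16 ± 0.07 per step was not called (limma adjusted p = 0.176). Without the untreated array it was 0.30 per step (limma adjusted p = 0.0322).

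KLF2, a factor of quiescence, had log2 signals of 4.10, 4.27, 4.00, 4.16, 4.14 and 4.37 at 0, 4, 12, 24, 48 and 72 h (probe set 219371_s_at). No array stood apart, and the largest difference from untreated was 0.27 at 72 h, which becomes 0.94 with the scaling to all spiked controls and -0.29 with bioC left out. The second probe set (226646_at) had 3.25, 3.27, 3.89, 3.78, 3.32 and 3.77, low signals that crossed 3.66 at 12, 24 and 72 h. The 2 probe sets did not run together over the arrays (Pearson's r of -0.08). The limma slope was 0.03 ± 0.04 per step (limma adjusted p = 0.646).

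**Figure D4:**
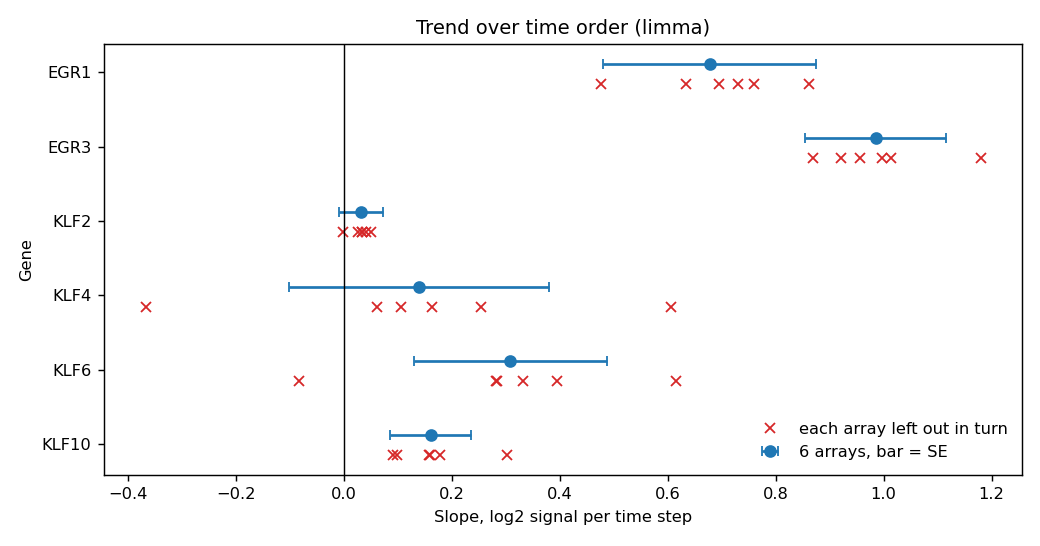
Slope over time order in log2 signal per step for each measured gene (circle, with its SE from limma over 6 arrays) and with each array left out in turn (crosses). The crosses of EGR1 and EGR3 are all above 0, while those of KLF4 and KLF6 span 0.

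Relatives of the members were read from lists of named genes. Among EGR relatives and NAB corepressors, with 4 of 4 genes tested, WT1 fell and none rose. WT1, which shares the EGR type of zinc fingers, had log2 signals of 9.13, 7.53, 7.86, 7.22, 5.58 and 4.44 over time, a difference of -4.69 at 72 h (limma adjusted p = 0.00303). NAB1 was higher by 1.07 and NAB2 by 0.36 at 72 h without a call (limma adjusted p = 0.0691 and 0.748), the NAB2 difference turning negative with the scaling without bioC. NAB2 had log2 signals of 6.04, 5.65, 5.24, 5.58, 5.53 and 6.40 over time, lower from 4 to 48 h as KLF4 was, while its second probe set had 5.16 in untreated cells and 4.91 at 72 h. EGR4 lay between 3.97 and 4.41.

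Of 13 other KLF factors 8 were tested, and KLF15 fell while none rose. KLF15, known for metabolic control, had log2 signals of 5.03, 4.35, 4.17, 4.05, 3.89 and 3.68 and a slope of -0.24 ± 0.05 per step (limma adjusted p = 0.0137), a call lost without the 0 or the 72 h array, with the mean of its probe sets and with the scaling to all spiked controls. Its second probe set had 4.31 at 72 h, against 4.25 in untreated cells. KLF3, a repressor of KLF target genes, had 6.00, 5.25, 5.79, 6.08, 6.41 and 7.23 and was 1.24 higher at 72 h without a call (limma adjusted p = 0.0523), in 1 of 4 probe sets, the others being 5.44, 5.24 and 4.93 at 72 h, against 5.47, 5.18 and 4.40 in untreated cells. KLF7, KLF9, KLF12, KLF13, KLF14 and KLF16 were not called. In the probe sets that stand for them, they differed from untreated by -0.61 (KLF14) to 0.18 (KLF9) at 72 h. Another KLF13 probe set was lower, with 4.98 at 72 h, against 6.31 in untreated cells. So was the other KLF16 probe set, with 5.37 against 6.46. One further KLF9 probe set had 2.86 at 72 h, against 3.93, while another had 3.78, against 3.64. The median of the 8 tested genes at 72 h was -0.21. Of 9 SP factors, which bind the same GC boxes, 6 were tested and none was called, also at an unadjusted p under 0.05, with SP1 1.06 higher at 72 h and a median of -0.09.

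Upstream of the EGR genes, ELK3, a partner of serum response factor, rose, with a slope of 0.55 ± 0.06 log2 units per step (SE, limma adjusted p = 0.00153), with signals of 5.47, 6.12, 7.10, 7.37, 7.96 and 8.16 over time. Its second probe set had 4.89 at 72 h, against 4.21 in untreated cells. ELK3 was the only call among 6 tested genes of serum response factor and its partners. SRF itself lay between 6.71 and 7.15, and the coactivator MRTFA was 1.38 higher at 72 h in the probe set that stands for it, without a call (limma adjusted p = 0.0592).

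Of 20 other immediate-early genes 17 were tested, 8 rose and none fell, where 8.33% of all genes rose, and their median difference at 72 h was 1.60. The 8 were FOS, JUNB, IER5, ZFP36, TRIB1, DUSP1, DUSP5 and DUSP6, a group of AP-1 subunits, an mRNA decay factor, a pseudokinase and phosphatases of MAP kinases among them. At 4 h none of the 17 was 2-fold or more higher or lower than untreated. At 72 h 10 were 2-fold or more higher, where 10.9% of all genes were. FOS, FOSB, IER3 and NR4A3 were below 3.66 in untreated cells, so they were tested through their ATRA arrays alone. Without the 72 h array 4 rose, where the rising calls over all genes numbered 440 in place of 1132, and 4 rose without the 4 or the 12 h array or with the bioC level as a covariate, and 5 with the scaling without bioC.

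Between 48 and 72 h, 7 of 17 were 2-fold or more higher at 72 h, as KLF4 and KLF6 were, where 4.74% of all genes were. DUSP1, a phosphatase of stress kinases, had log2 signals of 4.47, 4.22, 4.37, 5.06, 5.27 and 8.03 in 1 of 3 probe sets, while the other two lay between 3.39 and 4.66 and showed no step at 72 h. ATF3, a stress-induced repressor, had 5.00, 4.51, 4.37, 4.98, 5.34 and 8.22, and was not called (limma adjusted p = 0.0837). A second ATF3 probe set had 5.49 at 72 h, against 4.71 in untreated cells, and the third stayed under 3.66. In these leading probe sets both genes were below or near their untreated signal through 12 h and highest at 72 h. DUSP5, an ERK phosphatase, had 3.68, 4.25, 5.05, 5.15, 6.52 and 9.08, and FOS had 3.56, 3.56, 4.16, 5.36, 5.82 and 7.85. These 2 climbed earlier, as EGR3 did.

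**Figure D5:**
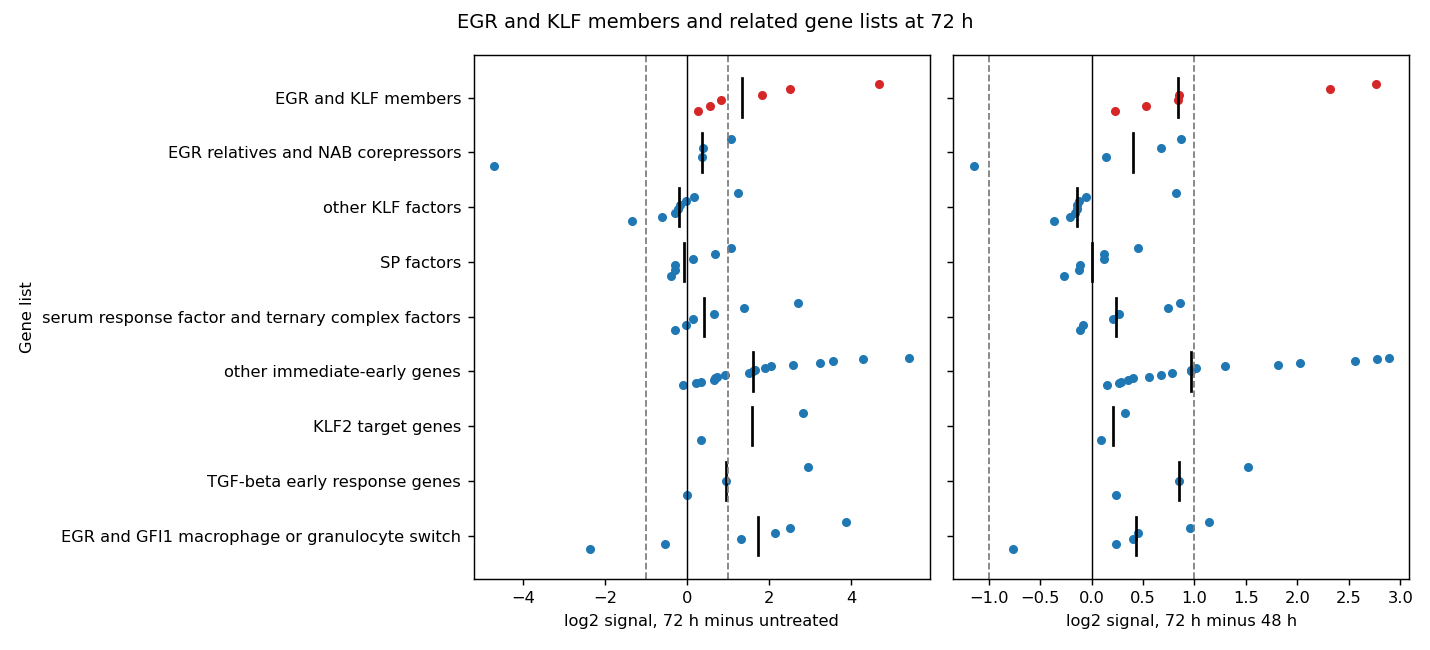
Difference in log2 signal at 72 h from untreated (left) and from 48 h (right) for each tested gene (dots) of the measured members (red) and of 8 related lists (blue), with list medians as black bars and dashed lines at 2-fold. The immediate-early list has a median of 1.60 against untreated and the other KLF list one of -0.21.

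Downstream and neighbouring genes were mixed. Of 5 KLF2 target genes 2 were tested and ITGB7, an integrin subunit, rose, with a slope of 0.53 ± 0.07 log2 units per step (SE, limma adjusted p = 0.00473), while the coagulation receptor THBD was not called. Of 6 early TGF-beta response genes 3 were tested and none was called, with 1 at an unadjusted p under 0.05. SKIL, a brake on SMAD signalling, had log2 signals of 4.41, 7.27, 6.83, 6.32, 7.11 and 7.35, a step at 4 h. TGIF1, a SMAD corepressor, had 5.95, 3.71, 4.73, 5.50, 4.43 and 5.95 and was lowest at 4 h, as EGR1 and KLF10 were, but a second probe set had 4.41 at 4 h, against 4.33 in untreated cells. SMAD7, the other gene tested, had 3.63, 3.52, 3.20, 3.63, 3.72 and 4.57, above 3.66 at 48 and 72 h alone. Its slope was not called (limma adjusted p = 0.161) but was with hours in place of order (limma adjusted p = 0.0359). Of 7 genes around the EGR and GFI1 choice 6 were tested. The G-CSF receptor CSF3R and the granulocyte factor CEBPE rose, and GFI1 fell, with a slope of -0.39 ± 0.08 log2 units per step (SE, limma adjusted p = 0.0137) that was not called without the 0 or the 72 h array, with the bioC level as a covariate or with the scaling to all spiked controls. CEBPE was not called with that covariate either. SPI1, a master factor of both paths, was 2.15 higher at 72 h without a call (limma adjusted p = 0.0538). CSF1R and IRF8, of the macrophage side, are named after their values were seen. The M-CSF receptor CSF1R had log2 signals of 5.20, 4.78, 5.85, 4.96, 5.37 and 6.51 over time, and its slope was not called (limma adjusted p = 0.19) but was with the bioC level as a covariate (limma adjusted p = 0.0386). IRF8, a factor of monocyte development, had 6.80 in untreated cells and 5.86 to 6.26 in ATRA and was not called (limma adjusted p = 0.291).

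Markers of monocytes and macrophages were measured beside these genes, since EGR1 and KLF4 are factors of that lineage. Of 8 listed markers 7 had a probe set, and CD14, MRC1, MSR1, VCAN, C1QA and C1QB stayed below 3.66 on all 6 arrays. CD163 was just above it at 12 h (3.70) and had 4.89 at 72 h, against 3.35 in untreated cells. The summed log2 signal of the 7 was 22.6 at 72 h, against 20.3 in untreated cells. That sum is made up mostly of signals below 3.66, and CD163 moved the most, so it does not show a rise of the set. Mature neutrophil markers moved further over the same arrays, the summed log2 signal of 6 being 65.6 at 72 h, against 27.1 in untreated cells. That of 6 promyelocyte markers was 44.8 at 72 h, against 52.7 in untreated cells. MPO, CTSG and ANPEP were lower at 72 h (10.92, 4.40 and 6.45, against 12.90, 6.83 and 10.02). AZU1 differed little (9.05, against 9.32), PRTN3 was higher (11.07, against 10.76) and ELANE stayed below 3.66. The part of these shifts in the members' values was not tested. On bulk arrays fewer cells of a type and less RNA per cell cannot be told apart.

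The genes whose course was most like a member's were named by Pearson's r over the 6 arrays, among 4144 genes that varied by at least 1 log2 unit. EGR1 was nearest to CR1 (0.980), RASSF5 (0.961) and RHOBTB3 (0.961), and 50 genes reached an r of 0.9. EGR3 was nearest to DDX60 (0.998), CD4 (0.998) and GCA (0.997), and 662 genes reached 0.9, which makes its course a common one. KLF4 was nearest to CLEC5A (0.973), C11orf96 (0.957) and NAB2 (0.957), with 31 genes at 0.9. KLF6 was nearest to FAM8A1 (0.999), SEMA7A (0.995) and DSE (0.993), with 266 genes, and KLF10 to GPR180 (0.999), BIRC6 (0.996) and DKFZP586I1420 (0.996), with 102 genes. KLF2, whose own range was 0.37, was nearest to RNF111 (0.991), DNAJB9 (0.989) and RAB22A (0.987), with 67 genes. With 6 points and so many genes compared, such values are a description of shape.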

How the data were processed

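Affymetrix arrays of NB4 cells, 6 in all, were used. The authors deposited log2 probe set signals. The submitters' processing notes name RMA, whose version is not given in any source used here. Such values have like distributions on all arrays, so a shift of most transcripts one way would be hidden. The number of arrays limits the precision.

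Of 54675 probe sets, 41097 had 1 gene in the platform annotation, 1801 several and 11777 none. After 62 control probe sets were left out, 41091 with 1 gene remained. Symbols were updated by Entrez identifier through the gene table of GRCh38.p14. Slopes over time order (0 to 5) came from limma 3.58.1 (R 4.3.3), using lmFit and eBayes with trend, and Benjamini-Hochberg adjustment over all genes tested. Differences between single arrays have no test. Where an end lay below 3.66 it was set to 3.66 and the fold given as at least that value.

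The members and lists were chosen with earlier results of these data known. All members were named, and from each list the called genes, up to 4 with the largest difference at 72 h, with EGR and KLF relatives added. Some genes without a call were named too. Alternatives changed the scaling, probe set choice, filter, time scale, covariate, baseline, fold threshold and arrays used.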

Additional observations from a re-analysis of the deposited data

How the results depend on the processing

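Of the members' trend calls, that of EGR3 held under every alternative run and no member was called falling under any. Rising members numbered 2 as reported and 1 with every probe set tested on its own, with hours in place of order, with the mean of all probe sets and with no filter, and 1 to 2 when each array was left out. Without the untreated array the 2 were EGR3 and KLF10. The slope of KLF6 (0.46) was called with the shift on all hybridisation controls. The KLF2 slope was -0.055 with the shift without bioC. With each array left out, slopes ran from -0.0015 to 0.050 for KLF2, from -0.37 to 0.61 for KLF4 and from -0.082 to 0.62 for KLF6, the lowest being without the 72 h array in each case. The cause was not tested.

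Counts of members at 2-fold moved as follows. The shares of all genes given above are for the deposited values at 2-fold, and none is given under these alternatives. With the shift on all controls 1 was higher and 1 lower at 4 h, 4 higher and 0 lower at 48 h, and 5 higher at 72 h. With the shift without bioC 4 were lower at 4 h, and 1 higher and 2 lower at 24 h. With a baseline averaged over the 0 and 4 h arrays 1 was lower at 12 h and 0 at 24 and 48 h. With the mean of all probe sets 1 was lower at 12 h. With low values set to 3.66, 1 was lower at 12 h and 1 higher at 24 h. At 1.5-fold 4 were lower at 4 h and 2 at 24 h, and at 3-fold 0 were higher and 1 lower at 12 h and 1 higher at 24 h. No paired analysis was possible because each group has 1 array.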
